A study of Mus musculus with 16 samples.

Results

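The 38 Hox genes described here are members of the 4 mouse Hox clusters, taken by name from the 49671 genes of the count tables (34558 genes had at least 1 UMI, a unique molecular identifier that marks 1 captured transcript). There were 10 members of the A cluster on chromosome 6, 10 of the B cluster on chromosome 11, 9 of the C cluster on chromosome 15 and 9 of the D cluster on chromosome 2 (GRCm38). They were chosen by name, not by a measured level. They were read in single cells that carried the red reporter tdTomato, from mouse dorsal root ganglia, the clusters of sensory neurons beside the spinal cord.

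The 10 libraries of 96 wells came from embryos at e15.5 of the PvtdTom line, a BAC transgene in which the parvalbumin promoter drives tdTomato (parvalbumin also marks a few touch neurons), and were filled by fluorescence-activated cell sorting. The 6 libraries of 96 wells came from pups at p1 whose label pools 2 crosses, Trpv1Cre; PvFlp; Ai65 and PvCre; Ai14, and the study's methods state that these cells were picked by hand. The methods also name 2 Trpv1Cre lines (Basbaum and Hoon). They give 96 thoracic and 96 lumbar cells for the cross of each, and as many for PvCre; Ai14. For e15.5 they give equal numbers of thoracic and lumbar cells. The study also reports that Hoxc10 closely followed the segment of origin of its e15.5 proprioceptors. The study reports that the Trpv1Cre cross labels proprioceptors of back muscles. Thoracic and lumbar ganglia were dissected apart for a comparison of neurons that reach different muscles, but the labels give no segment, cross or animal for a library, so libraries are called by their numbers. Wells with at least 10000 UMIs were sorted by marker genes that are not Hox genes. A proprioceptor well had at least 300 CPM (UMIs of the gene per 1000000 UMIs) of Etv1 and at least 1 UMI each of Pvalb and Ntrk3. A connective tissue well had at least 2000 CPM of Col1a1 plus Col1a2, the type I collagen chains.

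Hox genes encode homeodomain transcription factors that give cells a position along the head-to-tail axis. Within each cluster they lie in the order in which they are used along the body, with low paralog numbers reaching far forward and high numbers confined to the rear. In the spinal cord and its ganglia, genes of groups 4 to 8 are typical of neck and trunk levels, group 9 of the thorax and group 10 of the lumbar cord. Hox proteins bind DNA together with Pbx, Meis and Pknox partners, and Polycomb and trithorax proteins hold their clusters silent or active.

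Of the 960 wells at e15.5, all labelled as proprioceptive sensory neurons, 340 were proprioceptor wells (10 to 71 per library) and 389 were connective tissue wells (3 to 76 per library), which goes against the label. Of the 576 wells at p1, 349 were proprioceptor wells (11 to 82 per library) and 1 was a connective tissue well. All libraries used the same 96 well names, and 0 pairs of wells held identical counts. Library totals ran from 3701900 to 9299431 UMIs at e15.5 and from 386517 to 8814472 at p1, where library 3 had a median of 1409 UMIs per well and 84 wells under the floor. The median proprioceptor well held 111540 UMIs at e15.5 and 56998 at p1, and the median connective tissue well 28106. The marker sums below hold genes of the class rules (Col1a1, Col1a2, Pvalb, Etv1 and Ntrk3). Their separation was thus set by the rules. Outside the rules, Col3a1 had 3.01 to 73.6 CPM in proprioceptor libraries and 4461 to 7377 CPM in connective tissue. Runx3 had 233 to 335 CPM in proprioceptor libraries and 5.38 to 67.0 CPM in connective tissue. The summed level of 9 connective tissue genes was 50.7 to 442 CPM in proprioceptor libraries against 29693 to 42416 CPM in connective tissue, and that of 4 proprioceptor genes (Pvalb, Etv1, Ntrk3, Runx3) was 3953 to 4657 CPM against 115 to 354 CPM. Library 9 had 3 connective tissue wells at e15.5 and is left out of the values of that class. Library 10 had 5, with 119489 UMIs between them.

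Hox transcripts were found in every proprioceptor library. The summed level of the 38 members was 928 to 1143 CPM at e15.5 (median 1052, n = 10) and 858 to 1303 CPM at p1 (median 918, n = 6), and it was 795 to 1322 CPM in connective tissue (median 1052, n = 9). The median well held UMIs of 15 members in e15.5 proprioceptors, 12 in p1 proprioceptors and 10 in connective tissue. With every well thinned to 10000 UMIs these medians were 5, 5 and 6. In e15.5 proprioceptors 13 members had a UMI in at least 50% of the wells, against 9 at p1 and 12 in connective tissue, and after thinning 4, 2 and 1. Levels below are CPM of the UMIs summed over the wells of a class in a library, and since this protocol reads 3′ ends they were not divided by gene length.

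The C cluster gave a median of 51.5% of Hox UMIs in e15.5 proprioceptors and the A cluster 35.7%, against 10.2% from the B cluster and 1.96% from the D cluster. In connective tissue the B cluster gave 24.4%, with 40.6% from C, 29.2% from A and 2.91% from D. Members of groups 4 to 8 held 61.4% of proprioceptor Hox UMIs and groups 9 to 13 held 35.7%, against 73.4% and 13.5% in connective tissue. Groups 1 to 3 held 3.51% and 11.9%. These shares are medians over libraries. Those of groups 9 to 13 ran from 20.4% to 47.4% in proprioceptor libraries and from 8.16% to 51.1% in connective tissue. These ranges overlap, and library 9 counts in the proprioceptor medians only.

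There were 9 members that stayed under 10 CPM in every library sum and passed no test (Hoxa6, Hoxa11, Hoxa13, Hoxb1, Hoxb13, Hoxc12, Hoxd1, Hoxd12 and Hoxd13). Hoxa13 and Hoxd12 had 0 UMIs in proprioceptors of both ages and in connective tissue, which allows up to 0.0775 CPM in the e15.5 proprioceptor total. In e15.5 proprioceptors 5 members were at 0, these together with Hoxb1, Hoxb13 and Hoxd13. Hoxa11 gave 8 UMIs from a single well, and Hoxc12 gave 3 UMIs from 3 wells. The genes at the rear end of the clusters were thus near or below detection in the proprioceptors, and the other 29 members are described by their values.

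**Figure D1:**
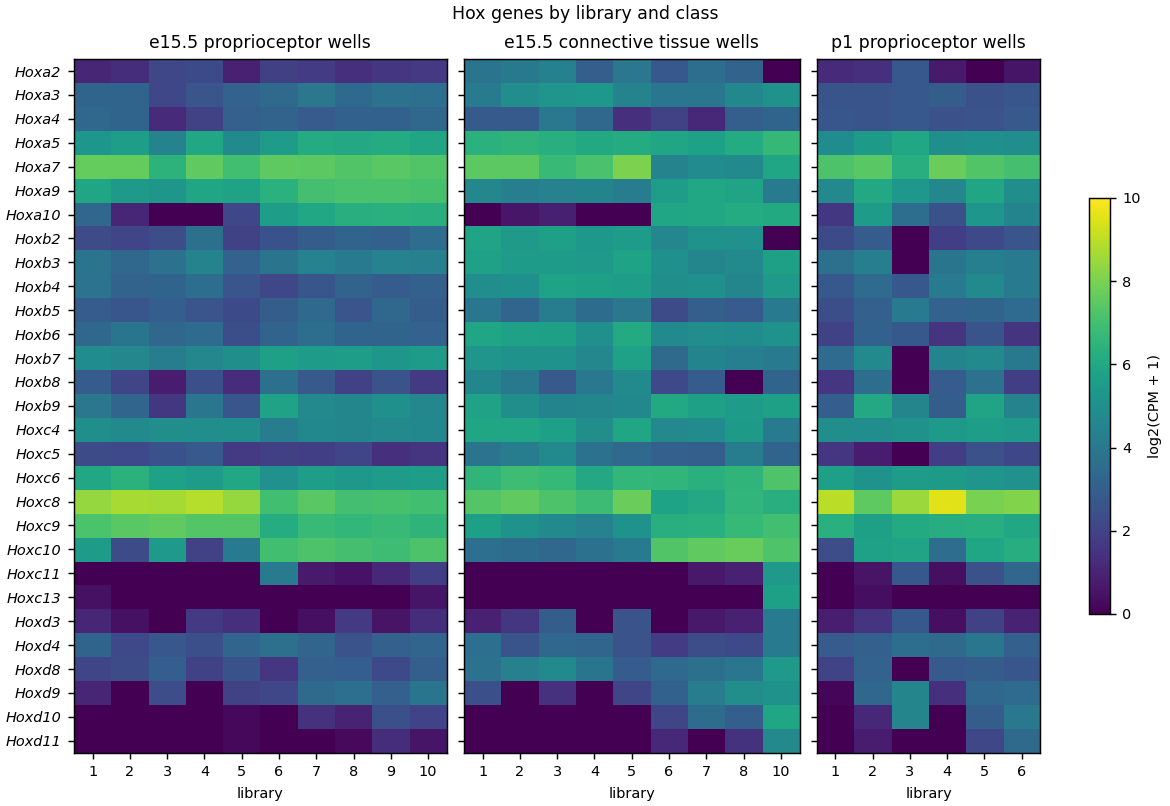
Level of the 29 named Hox genes, as log2(CPM + 1), in each library (columns, by library number) for e15.5 proprioceptor wells, e15.5 connective tissue wells and p1 proprioceptor wells. Hoxa10 and Hoxc10 are bright in e15.5 libraries 6 to 10 in both classes shown there, and Hoxc8 is bright in every proprioceptor library, from 124 to 756 CPM.

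The forward groups 2 and 3 were low in proprioceptors at e15.5. Hoxa2, a gene of hindbrain patterning, had 0.880 to 3.70 CPM (median 2.10), Hoxb2 2.82 to 11.9 (median 5.66), Hoxa3 3.43 to 14.6 (median 9.01), Hoxb3 7.92 to 21.5 (median 15) and Hoxd3 0 to 2.22 (median 0.756). All 5 had some library of connective tissue above the highest proprioceptor library, with maxima of 20.04, 56.4, 38.8, 54.8 and 16.7 CPM. The gene model of Hoxd3 shares exon bases with Hoxd4, so reads of these genes cannot be fully told apart.

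Groups 4 to 8 held the most abundant transcripts. Hoxa7 had 87.1 to 200 CPM at e15.5 (median 174) and 79.3 to 209 at p1 (median 151). Hoxc8 had 124 to 466.1 CPM at e15.5 (median 254) and 185 to 756 at p1 (median 318). UMIs of Hoxa7 were found in 331 of 340 and 338 of 349 proprioceptor wells, and those of Hoxc8 in 326 and 347. Hoxa5, Hoxc4, Hoxc6 and Hoxb7 followed, with e15.5 medians of 53.5, 25.9, 46.8 and 34.4 CPM. The remaining members of these groups, Hoxa4, Hoxb4, Hoxb5, Hoxb6, Hoxb8, Hoxc5, Hoxd4 and Hoxd8, had medians of 2.95 to 8.69 CPM. Hoxc5 and Hoxc10 share exon bases, and the counts of both are uncertain for that reason. The gene models of 15 members share exon bases with another gene. For 9 of them it lies on the same strand and for 9, Hoxa7 among them, on the opposite strand, and some have both.

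Among groups 9 to 11, Hoxc9 had 71.6 to 187 CPM at e15.5 (median 124), Hoxa9 38.4 to 141 (median 70.9), Hoxb9 2.06 to 53.5 (median 18.8) and Hoxd9 0 to 13.7 (median 3.73). Hoxd10 had at most 4.49 CPM at e15.5 and 22.7 at p1, where the highest value rests on 4 UMIs of library 3 and the next was 14.9 CPM in library 6. Hoxd11 had at most 1.45 and 9.90 CPM. Hoxc11 was at 0 in e15.5 libraries 1 to 5 and reached 16.7 CPM in library 6, where 24 of its 25 UMIs lay in 1 well. Hoxc13 gave 5 UMIs in 3 of 340 wells.

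Hoxc10, a gene of lumbar identity, had 45.3, 3.99, 40.5, 2.96 and 16.9 CPM in proprioceptors of e15.5 libraries 1 to 5, and 125, 145, 131, 117 and 148 CPM in libraries 6 to 10. Libraries 2 and 4 were lowest and library 10 highest, and none of libraries 1 to 5 reached the level of library 9. At p1 Hoxc10 had 4.17, 51.4, 56.7, 10.9, 59.4 and 74.5 CPM in libraries 1 to 6, so libraries 1 and 4 were low and the other 4 were high. The value of p1 library 3 rests on 10 UMIs.

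Hoxa10, the A cluster gene of the same group, moved with it. It had 8.99, 1.09, 0, 0 and 3.35 CPM in e15.5 libraries 1 to 5 and 48.1, 60.4, 77.3, 80.1 and 77.7 CPM in libraries 6 to 10. In p1 libraries 1 to 6 it had 2.08, 45.4, 11.3, 4.51, 37.5 and 21.9 CPM, again lowest in libraries 1 and 4. Hoxa10 and Hoxc10 were read together in 196 of 340 wells at e15.5, Hoxc10 alone in 47, Hoxa10 alone in 17 and neither in 80. At p1 these counts were 117, 43, 26 and 163 of 349. These are counts over wells of libraries that differ in both genes, and they are given as a description.

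Hoxc10 was not uniform within libraries either. In e15.5 libraries 6 to 10 it was found in 84.6% to 95.8% of proprioceptor wells, and the lowest of these shares was 11 of 13 wells (exact 95% interval 54.5% to 98.1%). In libraries 1 to 5 it was found in at most 41.4%, from 1 of 10 wells (0.253% to 44.5%) to 12 of 29 wells (23.5% to 61.1%). Few wells carried those UMIs. In library 1 the highest well held 60 of 126 UMIs, and the level without it was 24.8 CPM, and in library 3 it held 39 of 59, with 15.4 CPM without it. At p1 libraries 1 and 4 had Hoxc10 in 17.1% (9.66% to 27.0%) and 11.3% (4.66% to 21.9%) of wells, and the highest well of library 4 held 23 of its 34 UMIs. The intervals cover counting error only.

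**Figure D2:**
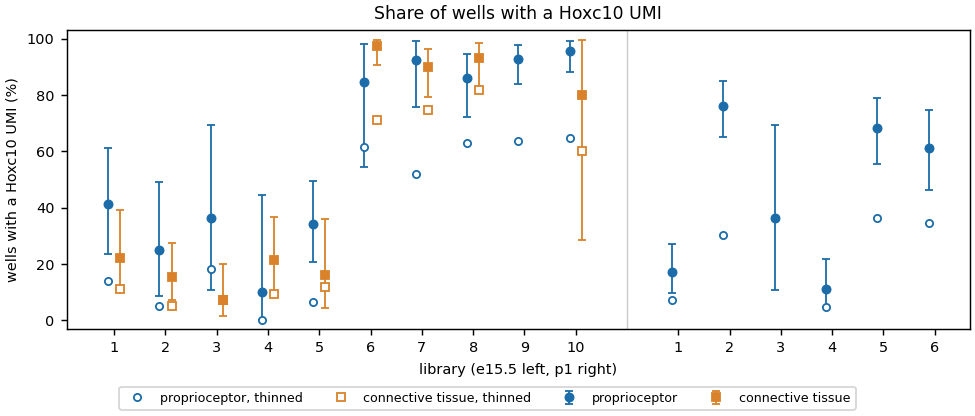
Share of wells with at least 1 Hoxc10 UMI in each library by class, as percent, with exact 95% intervals as bars and open markers for wells thinned to 10000 UMIs. Libraries 6 to 10 at e15.5 lie at 84.6% or higher in proprioceptors, and libraries 1 to 5 at 41.4% or lower.

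In connective tissue wells, group 10 genes were also low in libraries 1 to 5. Hoxc10 had 11.5, 10.6, 9.19, 12.5 and 16.1 CPM in libraries 1 to 5 and 157, 188, 205 and 151 CPM in libraries 6, 7, 8 and 10. Hoxa10 had 0, 0.506, 0.835, 0 and 0 CPM in libraries 1 to 5 and 59.1, 62.3, 70.0 and 67.0 CPM in the others. The widest gap between neighbouring Hoxc10 values in connective tissue was 0.725 of their whole range on the log2 scale, so no correlation over the libraries is given for it.

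Other genes ran with or against that order. In e15.5 proprioceptors Hoxc8 had 337, 410, 397, 466.1, 346, 124, 171, 127, 136 and 125 CPM in libraries 1 to 10, highest in library 4, where Hoxc10 was lowest. Hoxc9 had 141, 174, 187, 159, 160, 71.6, 106, 98.1, 104 and 90.5 CPM, and Hoxa9 had 58.9, 41.0, 38.4, 57.8, 53.0, 82.9, 130, 140, 141 and 135 CPM. Hoxc8 and Hoxc9 were thus low in the libraries in which Hoxa9, Hoxa10 and Hoxc10 were high. Hoxa7 had 197, 200, 87.1, 189, 126, 182, 178, 154, 171 and 155 CPM, with library 3 lowest and no such order.

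In connective tissue Hoxc9 and Hoxa7 did not follow the proprioceptors. Hoxc9 had 50.2, 32.9, 26.7, 20.4, 33.8, 77.7, 80.5, 103.2 and 126 CPM in libraries 1 to 8 and 10, highest in libraries where it was low in the neurons. Hoxa7 had 178, 179, 105, 139, 261, 21.5, 27.6, 26.0 and 58.6 CPM. Hoxc8 had 159, 190, 149, 115, 208, 55.0, 64.0, 95.1 and 75.3 CPM, which kept the order of the proprioceptors more closely. Libraries were not averaged or tested by these levels, because the labels give no segment.

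**Figure D3:**
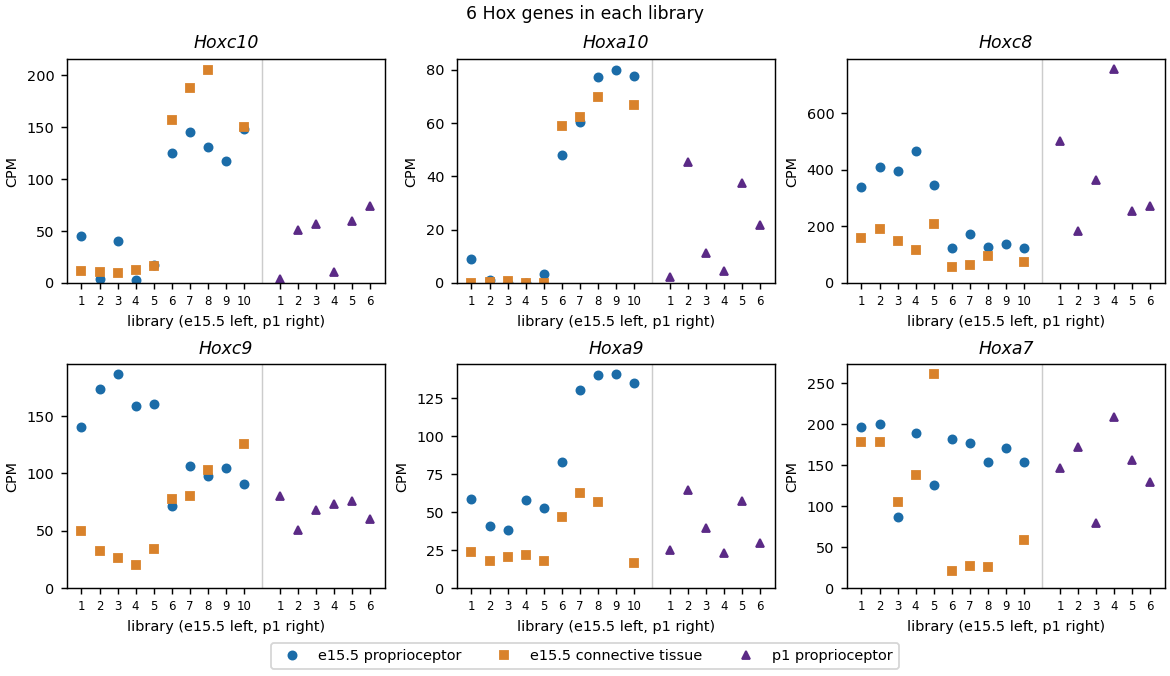
Level in CPM of Hoxc10, Hoxa10, Hoxc9, Hoxc8, Hoxa9 and Hoxa7 in each library, for e15.5 proprioceptors, e15.5 connective tissue and p1 proprioceptors, and each point is 1 library sum. Hoxc9 was lowest in library 6 in proprioceptors (71.6 CPM) and lowest in library 4 in connective tissue (20.4 CPM).

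Whether a library carried the same Hox profile in its neurons and its connective tissue was asked for 15 members with a median of at least 5 CPM in both classes (9 libraries, log2(CPM + 1), exact permutation tests adjusted over the 15, Hoxc10 among them). Hoxc9 had Pearson r = -0.87 (adjusted p = 0.0374) and Hoxb9 r = 0.85 (adjusted p = 0.0283). Their Spearman rho were -0.80 and 0.83, with an adjusted p = 0.104 for both by exact permutation, which misses the threshold. Without the 2 libraries farthest from the median, r was -0.92 for Hoxc9 and 0.75 for Hoxb9. In both classes the Hoxc9 values of libraries 1 to 5 did not overlap those of libraries 6, 7, 8 and 10. Its r thus cannot be told from a contrast between these 2 sets of libraries. No member passed by Spearman. Hoxc8 and Hoxb6 were not tried, because a single gap took more than 0.5 of their range.

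Proprioceptors of the same libraries were then compared by subtype. The study used Gabrg1, a GABA receptor subunit, as a marker of neurons that reach the hindlimb and Tox, a nuclear HMG-box protein, for those that reach the back. A Gabrg1 well had at least 3 UMIs of Gabrg1 and more of it than of Tox, and a Tox well the reverse. At e15.5, 3 libraries (8, 9 and 10) had at least 5 wells of both kinds, with 31 Gabrg1 and 56 Tox wells in all. Of the 21 members tested, 6 were higher in Gabrg1 wells and 1 was lower (edgeR quasi-likelihood test with the library as a block, adjusted p under 0.05). Over all 11493 genes tested, 2.59% were higher, 1.90% lower and 4.49% called in either direction. The other 17 members did not pass the filter on low counts. Of the 21, 8 passed that filter through 1 subtype alone, 7 of them through the Gabrg1 sums. The median log2 difference was 0.54 over the tested members and 0.000893 over all genes. The 7 members that passed through the Gabrg1 sums alone all had positive values. The filter thus favoured a positive median of the members, which cannot be set against that of all genes.

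The members called higher lie in the A and B clusters, but not in an unbroken run. Hoxa6, between Hoxa5 and Hoxa7, did not pass the filter on low counts. Hoxa4, Hoxb6 and Hoxb9, each next to a called member, were tested and not called. The 250 bases upstream of the RefSeq start are shown for 4 of the members called higher, as the stretches where shared letters were looked for. They are from GRCm38.p6 and read 5′ to 3′ along the gene, with capitals for 3 searched motifs on either strand: TTTATG (the core that caudal-type proteins bind), GGGCGG (the GC box) and TGATNNAT (a joint Hox and Pbx motif). Hoxa5 lies at chr6:52204588-52204837, Hoxa9 at chr6:52227371-52227620 inside its longer gene model, and Hoxa10 at chr6:52240855-52241104, all on the minus strand. Hoxb8 lies at chr11:96281655-96281904 on the plus strand.
Hoxa5: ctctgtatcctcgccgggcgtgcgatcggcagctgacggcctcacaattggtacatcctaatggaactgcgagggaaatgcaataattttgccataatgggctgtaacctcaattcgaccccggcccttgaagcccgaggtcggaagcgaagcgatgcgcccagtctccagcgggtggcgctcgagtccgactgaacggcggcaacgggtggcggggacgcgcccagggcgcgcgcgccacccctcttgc
Hoxa9: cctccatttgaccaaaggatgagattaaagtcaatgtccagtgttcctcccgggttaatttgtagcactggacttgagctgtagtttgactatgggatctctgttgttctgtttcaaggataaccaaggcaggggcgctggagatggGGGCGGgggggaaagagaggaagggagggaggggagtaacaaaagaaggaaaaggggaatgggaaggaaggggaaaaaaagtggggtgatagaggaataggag
Hoxa10: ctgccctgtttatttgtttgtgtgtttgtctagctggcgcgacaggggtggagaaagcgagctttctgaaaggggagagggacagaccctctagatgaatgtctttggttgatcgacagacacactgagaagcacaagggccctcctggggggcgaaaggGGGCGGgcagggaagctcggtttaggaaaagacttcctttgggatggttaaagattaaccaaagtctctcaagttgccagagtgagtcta
Hoxb8: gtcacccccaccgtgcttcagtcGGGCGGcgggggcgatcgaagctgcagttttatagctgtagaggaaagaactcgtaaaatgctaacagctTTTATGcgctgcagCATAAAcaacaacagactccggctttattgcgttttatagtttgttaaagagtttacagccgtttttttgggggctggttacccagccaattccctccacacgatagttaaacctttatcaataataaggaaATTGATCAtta

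The windows shared no motif in all 4. Hoxa5 held none, Hoxa9 and Hoxa10 held 1 GGGCGG each, and Hoxb8 held 2 TTTATG, 1 GGGCGG and 1 TGATNNAT. Of the 24 windows found for 22 of the 38 members, 20.8% held TTTATG, 41.7% held GGGCGG and 16.7% held TGATNNAT, against 10.8%, 32.7% and 7.68% of all 32851 windows. Hox windows were richer in G and C (median 58.6%, against 52.4%). A further Hoxa10 window, at chr6:52234940-52235189, held none of the 3, and is not printed. The Hoxa7 window held 2 TTTATG and is not printed because it overlaps an exon of a longer Hoxa7 model, and Hoxb7 had no window. A match is only a run of letters, and no binding was measured.

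Hoxa5, which patterns neck and upper trunk, had 84.3, 111 and 147 CPM in Gabrg1 wells of libraries 8, 9 and 10 and 40.0, 38.5 and 32.7 CPM in Tox wells (log2 fold change 1.63 ± 0.19 SE, adjusted p = 0.00159, edgeR). Hoxa7, a trunk gene, had 221, 218 and 316 CPM against 73.9, 117 and 115 (1.32 ± 0.14, adjusted p = 7.08e-04, edgeR). In both genes the lowest Gabrg1 sum was above the highest Tox sum.

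Hoxa9 had 201, 184 and 254 CPM in Gabrg1 wells and 51.1, 104 and 122 CPM in Tox wells (log2 fold change 1.25 ± 0.18 SE, adjusted p = 0.00460, edgeR). Hoxa10 had 136, 114 and 145 CPM against 23.4, 56.4 and 56.7 CPM (1.56 ± 0.23, adjusted p = 0.00492, edgeR). The rearward A cluster genes thus differed in the same direction as Hoxa5 and Hoxa7.

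Hoxb7 had 49.9, 48.8 and 105 CPM against 36.9, 24.9 and 35.0 CPM (log2 fold change 1.05 ± 0.21 SE, adjusted p = 0.0234, edgeR). Without library 9 or 10 its call was lost (adjusted p = 0.157 to 0.176, edgeR), as it was by DESeq2 (adjusted p = 0.0920). Hoxb8 was close to the limit of detection in Tox wells, with 9, 15 and 11 UMIs in Gabrg1 wells and 0, 3 and 2 in Tox wells, or 5.83, 7.62 and 12.98 CPM against 0, 1.41 and 0.787 (log2 fold change 3.44 ± 0.63 SE, adjusted p = 0.0150, edgeR). None of its Tox sums reached the level of the filter on low counts, 5.57 CPM, so it could be tested only because it was high in Gabrg1 wells. That call was lost without library 10 (adjusted p = 0.114, edgeR) and by DESeq2 (adjusted p = 0.0744).

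Hoxc10 went the other way, with 68.1, 69.6 and 62.5 CPM in Gabrg1 wells and 179, 152 and 218 CPM in Tox wells (log2 fold change -1.39 ± 0.13 SE, adjusted p = 5.08e-04, edgeR). Hoxa10 and Hoxc10, of the same paralog group, thus differed in opposite directions between the subtypes in 3 of 3 libraries, although both were higher in e15.5 libraries 6 to 10 than in libraries 1 to 5. The other 14 tested members were not called. Hoxc8 had 126 to 142 CPM against 117 to 132, Hoxc9 83.0 to 108 against 101 to 134, and Hoxc6 32.4 to 46.7 against 46.5 to 54.3.

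Marker lists moved with the subtypes. The sum of 5 pan-neuronal genes was 6051 to 6336 CPM in Gabrg1 wells and 4902 to 5612 CPM in Tox wells, and that of 4 proliferation genes was 44.8 to 53.8 against 79.1 to 196 CPM. The median Gabrg1 well also held 154721 UMIs against 108834. The part of these in the Hox differences was not tested, and since a library may hold several ganglia the subtype and the ganglion of origin cannot be told apart. With every well thinned to 10000 UMIs, Hoxa7 and Hoxa9 were called higher and Hoxc10 lower, Hoxa10 missed the threshold (adjusted p = 0.0548, edgeR), and Hoxa5, Hoxb7 and Hoxb8 fell below the filter on low counts.

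At p1 the subtypes were compared in libraries 1, 4 and 5 (24 Gabrg1 and 66 Tox wells). Of 12 members tested, 0 were called (edgeR; over all 10662 genes 0.00% were higher, 0.00938% lower and 0.00938% in either direction), and 2 had an unadjusted p under 0.05. The share of all genes at that unadjusted level is not given for this fit. These 2 are thus not read as a result. DESeq2 also called 0. Hoxa7 had 171 to 227 CPM in Gabrg1 wells and 81.7 to 175 in Tox wells (log2 fold change 0.79 ± 0.25 SE, adjusted p = 0.687, edgeR), and Hoxb7 had 14.5 to 52.8 against 13.7 to 17.1 (1.22 ± 0.38, adjusted p = 0.687, edgeR).

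Hoxc10 had 0 to 45.7 CPM in Gabrg1 wells and 3.32 to 73.2 in Tox wells at p1, lower in Gabrg1 wells in 3 of 3 libraries (log2 fold change -1.22 ± 0.57 SE, adjusted p = 1.00, edgeR). Hoxa5 had 25.1 to 41.8 against 26.8 to 45.9 CPM, and Hoxa9 8.80 to 66.4 against 21.8 to 45.9. The difference between the ages was tested itself, as an interaction over both sets of libraries: 0 of 16 members were called and 3 had an unadjusted p under 0.05 (Hoxa5, Hoxa9 and Hoxa10). Over all 10957 genes of that fit 0.110% were higher, 0.0821% lower and 0.192% called in either direction, and 6.75% had an unadjusted p under 0.05. The one nearest to a call was Hoxa5 (log2 difference -1.69, adjusted p = 0.167, edgeR). The p1 sums held 5 to 13 Gabrg1 wells a library. Of the p1 libraries compared, 1 and 4 were those low in Hoxc10, while e15.5 libraries 8, 9 and 10 were all high in it. Age and this difference between libraries cannot be told apart here.

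**Figure D4:**
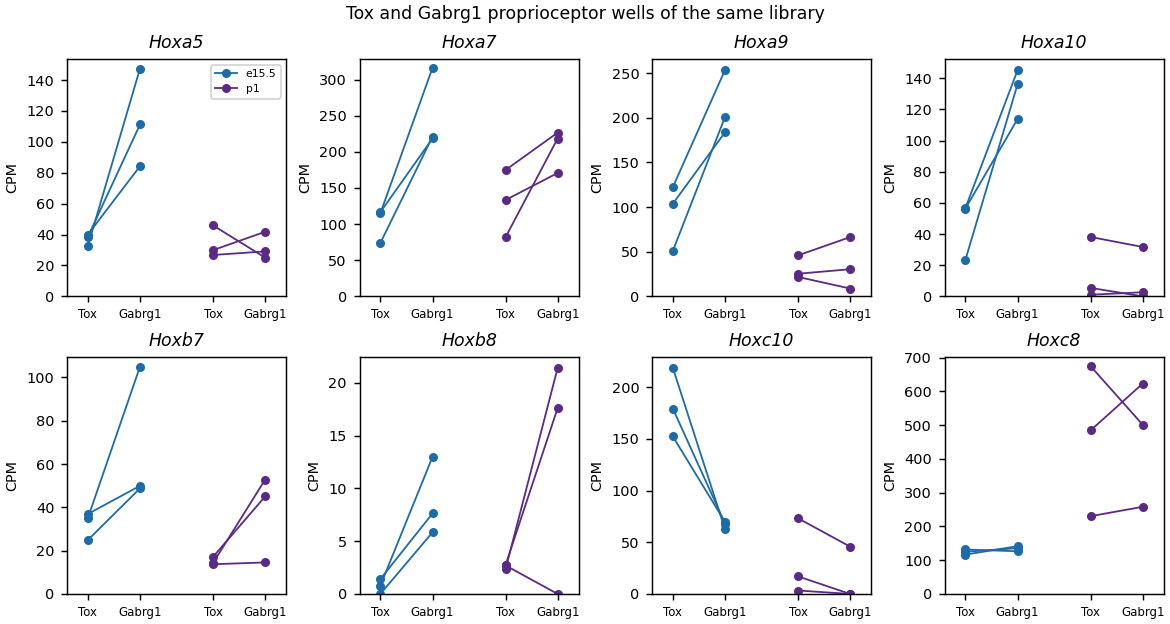
Level in CPM of Hox genes in Gabrg1 and Tox wells of the same library, at e15.5 (libraries 8, 9 and 10) and at p1 (libraries 1, 4 and 5); lines join the sums of 1 library. At e15.5 Hoxa5, Hoxa7, Hoxa9 and Hoxa10 were higher in Gabrg1 wells in 3 of 3 libraries and Hoxc10 was lower in 3 of 3.

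Proprioceptors and connective tissue of the same libraries were compared in 9 e15.5 libraries, with the library as a block. Of 21 members tested, 3 were higher in proprioceptors and 12 lower (edgeR, adjusted p under 0.05). The classes differ in most of the transcriptome, and 39.0% of the 11891 genes tested were higher, 38.6% lower and 77.6% called in either direction, so a call here is common. The other 17 members did not pass the filter on low counts, and 7 of the 21 (Hoxa3, Hoxb4, Hoxb6, Hoxb9, Hoxc5, Hoxc10 and Hoxd8) passed it through the connective tissue sums alone. The median log2 fold change was -0.78 over the tested members and 0.00414 over all tested genes. Those 7 members all had negative values. The filter thus favoured a negative median of the members, which cannot be set against that of all genes.

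The 3 members higher in proprioceptors were Hoxa9, Hoxc8 and Hoxc9, of groups 8 and 9. Hoxa9 had 38.4 to 140 CPM against 16.7 to 62.9 CPM, with a log2 fold change of 1.10 ± 0.14 (SE, adjusted p = 4.48e-06, edgeR), higher in 9 of 9 libraries. Hoxc8 differed by 1.02 ± 0.13 (adjusted p = 3.51e-06, edgeR), also in 9 of 9. Hoxc9 differed by 1.16 ± 0.34 (adjusted p = 0.00658, edgeR), higher in 6 of 9 libraries and lower in libraries 6, 8 and 10.

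Of the 12 members lower in proprioceptors, 6 were of the B cluster. Hoxb2 had a mean of 6.28 CPM against 35.5 (log2 fold change -2.80 ± 0.34, adjusted p = 2.61e-06, edgeR), Hoxb4 7.73 against 37.9 (-2.39 ± 0.22, adjusted p = 1.44e-07) and Hoxb6 9.15 against 41.7 (-2.29 ± 0.24, adjusted p = 5.91e-07). Hoxb3 (-1.57), Hoxb9 (-1.39) and Hoxb5 (-0.81) were also lower, and of the B cluster members tested Hoxb7 alone was not called. Hoxb3, Hoxb4, Hoxb6 and Hoxb9 were lower in 9 of 9 libraries, and Hoxb2 in 8. Hoxb4, Hoxb6 and Hoxb9 passed the filter on low counts through the connective tissue sums alone, so the filter favoured this direction. They reached its level in 6, 8 and 7 of 9 proprioceptor sums. Hoxb5 lost its call without library 3, 4 or 5 (adjusted p = 0.0542 to 0.0727, edgeR).

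Of the other clusters, Hoxc5 (log2 fold change -2.05), Hoxd8 (-1.74), Hoxa3 (-1.54), Hoxc6 (-1.03), Hoxc4 (-0.78) and Hoxa5 (-0.78) were lower in proprioceptors. Hoxc5 reached the level of the filter, 6.203 CPM, in 0 of 9 proprioceptor sums and 9 of 9 connective tissue sums, so it was tested only because it was high there. Hoxa3 and Hoxd8, at that level in 7 and 4 proprioceptor sums, also passed through the connective tissue sums alone. Hoxc6, for example, had 32.1 to 86.04 CPM against 64.4 to 151 CPM, lower in 9 of 9 libraries. The 6 members not called were Hoxa4, Hoxa7, Hoxa10, Hoxb7, Hoxc10 and Hoxd4. For Hoxc10 the log2 fold change was -0.16 ± 0.30, and for Hoxa10 it was 0.13 ± 0.31 (adjusted p = 0.627 and 0.715, edgeR). Hoxa7 was not called by edgeR (0.73 ± 0.40, adjusted p = 0.105) but was by DESeq2 (0.92, adjusted p = 0.0304). Connective tissue wells were shallower, and with every well thinned to 10000 UMIs 12 members were tested, of which 6 were called lower and 3 higher. The other 6 members called lower (Hoxa3, Hoxb3, Hoxb4, Hoxb5, Hoxc5 and Hoxd8) then fell below the filter on low counts.

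The genes of 2 further lists were read against the 77.6% of all genes called here (39.0% higher and 38.6% lower). Of 9 tested cofactors, 4 were higher in proprioceptors, among them Pbx4 (3.40), Meis2 (3.18) and Meis3 (1.81 on the log2 scale), and 2 were lower, Meis1 (-2.78) and Pknox1 (-0.95). Meis2 had a mean of 436 CPM against 45.8, and Meis1 4.44 against 25.3. Of 19 tested caudal and chromatin regulators 0 were higher and 12 were lower, with the largest differences in the Polycomb genes Ezh2 (-2.43), Ring1 (-1.43) and Eed (-1.34) and the demethylases Kdm6b (-1.14) and Kdm6a (-1.02). Proliferation genes summed to 65.1 to 213 CPM in proprioceptors and 184 to 1382 CPM in connective tissue, and their part in these differences was not tested. Evx1 and Evx2 did not pass the filter on low counts, and 1 of the 41 other genes inside the clusters did, Gm11539 (-1.30).

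Proprioceptors at p1 were compared with those at e15.5 over all 16 libraries. Of 24 members tested, 3 were higher at p1 and 5 lower (edgeR, adjusted p under 0.05), against 30.8% higher, 32.1% lower and 62.9% in either direction over 13884 genes. The other 14 members did not pass the filter on low counts, and 9 of the 24, among them Hoxb6 and Hoxb7, passed it through the e15.5 sums alone. The median log2 fold change was 0.0511 over the tested members and -0.0311 over all genes. The ages also differ in mouse line and in sorting against hand picking. The mix of subtypes may differ too, since the Trpv1Cre crosses at p1 label proprioceptors of back muscles per the study. The mix of libraries high and low in Hoxc10 was not the same either, and these cannot be told apart.

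Hoxc4, a gene of neck identity, had 17.4 to 30.9 CPM at e15.5 (median 25.9) and 28.8 to 46.7 at p1 (median 37.1), with a log2 fold change of 0.73 ± 0.13 (SE, adjusted p = 5.47e-05, edgeR). Hoxb4 had 3.34 to 12.9 CPM and 5.67 to 26.5 CPM (1.17 ± 0.29, adjusted p = 0.00142, edgeR). Hoxc9 fell from a median of 124 to 70.7 CPM (-0.67 ± 0.18, adjusted p = 0.00354, edgeR), and Hoxb6 fell from 8.69 to 3.97 CPM (-0.90 ± 0.30, adjusted p = 0.0139, edgeR). These 4 were called without any 1 library too, but Hoxc9 was not called in thinned wells (adjusted p = 0.0742, edgeR), nor Hoxb6 with Etv1 at 1000 CPM or more (adjusted p = 0.0948, edgeR). Hoxb4 was not called with the library number as a block (adjusted p = 0.0731, edgeR), though these numbers do not pair the ages.

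The other 4 calls were each lost when any 1 of several libraries was left out. Hoxc8 (log2 fold change 0.82 ± 0.34) was not called without any 1 of e15.5 libraries 6 to 10 or p1 libraries 1, 3 or 4 (adjusted p = 0.0530 to 0.236, edgeR), and Hoxb7 (-0.62 ± 0.26) without any 1 of e15.5 libraries 6 to 10 or p1 libraries 1, 3, 4 or 6 (0.0502 to 0.146). With Etv1 at 1000 CPM or more and with wells of at least 20000 UMIs neither was called (adjusted p = 0.0992 and 0.0651 for Hoxc8, 0.0647 and 0.0589 for Hoxb7, edgeR). Hoxc8 was not called by DESeq2 either (adjusted p = 0.0710) nor under the study's filters (0.0676), and Hoxb7 not in thinned wells (0.0720). Hoxa9 (-0.92 ± 0.34) was not called without p1 library 1, 4 or 6 (0.0589 to 0.0676), and Hoxa3 (-0.60 ± 0.23) without e15.5 library 7, 9 or 10 or p1 library 1, 2, 5 or 6 (0.0551 to 0.0701). Hoxc10 (-0.74 ± 0.66) and Hoxa10 (-0.55 ± 0.78) were not called (adjusted p = 0.338 and 0.558, edgeR). Neither were the 14 other members tested.

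**Figure D5:**
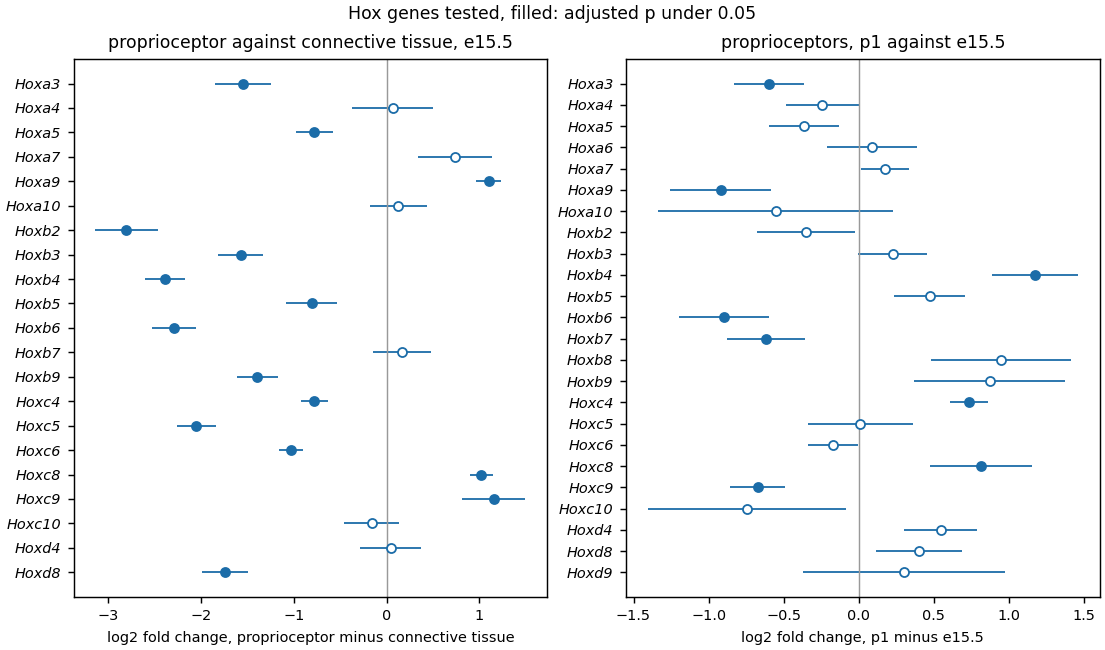
Log2 fold change (± SE) of each tested Hox gene, for proprioceptor against connective tissue wells at e15.5 (left) and for p1 against e15.5 proprioceptors (right); filled points had an adjusted p under 0.05. On the left 3 genes lie to the right of 0 among the filled points and 12 to the left, and on the right 3 and 5.

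Against the 62.9% of all genes called in this comparison (30.8% higher and 32.1% lower), 1 of the 9 cofactors was higher at p1, Pbx4 (1.45), and 4 were lower, among them Meis1 (-1.76), Pknox2 (-0.82) and Meis2 (-0.59 on the log2 scale). Of 20 regulators tested, 5 were higher, among them the Polycomb genes Cbx6 (1.26) and Suz12 (0.90), and 7 were lower, with the largest changes in Cbx2 (-2.37), Phc1 (-1.67) and Rnf2 (-1.63). Of 4 other genes inside the clusters that were tested, the antisense gene Hoxd3os1 was higher (1.54) and Gm11539 lower (-0.74). The sources used here do not say whether counting used strand, so reads of Hoxd3os1 and Hoxd3 may not be told apart. Between the subtypes at e15.5, 1 cofactor was higher in Gabrg1 wells, Pbx3 (0.61), 1 was lower, and 0 of 19 regulators were called.

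Most Hox genes varied more between libraries than the median gene. The biological coefficient of variation (BCV), the spread between library sums beyond counting error, had a median of 0.244 over 12 members in e15.5 proprioceptors against 0.127 over all genes, and 11 of the 12 were above the latter. At p1 it was 0.241 against 0.176 (11 of 14 members above) and in connective tissue 0.326 against 0.185 (14 of 14). Hoxc10 had the highest BCV of the members in connective tissue, 0.940, and at p1, 0.666, and Hoxc8 in e15.5 proprioceptors, 0.438. Hoxc10 and Hoxa10 did not pass the filter on low counts in the last set. Hoxc4 was the least variable there, with 0.123, below the median of all genes.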

How the data were processed

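CEL-Seq2 libraries of 96 single cells from dorsal root ganglia were analysed, 10 at e15.5 and 6 at p1. The authors demultiplexed and mapped the reads with scruff and deposited UMI counts per gene and well, per the labels on mm10 (GRCm38). The sources used here do not say whether counting used strand. Gene names and positions are from GENCODE (GRCm38). The members and lists were chosen with earlier results of these data known. Values over libraries are given for members with at least 10 CPM in 1 library sum or past a threshold, and from each fixed list at most 6 called genes are named. Some genes of these lists are counted but not reported here by name. No column of per-sample values was left unused.

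Counts were summed per library and class (at least 5 wells) and tested with edgeR 4.0.16 in R 4.3.3 (quasi-likelihood, filterByExpr, TMM, Benjamini-Hochberg over all genes tested), with DESeq2 1.42.0, other filters and thinning to 10000 UMIs as alternatives. Promoter motifs were counted in the RefSeq windows of GRCm38.p6. Nothing in the labels says which libraries come from separate animals, so p-values measure the spread between libraries. Class and subtype sums pair within a library, which holds both. Over 10978 genes, the deviations of the 9 proprioceptor and connective tissue sums of 1 library correlated at 0.0387 to 0.179, and over 9857 genes those of the 3 e15.5 subtype pairs at 0.126 to 0.178. Those of the 3 p1 subtype pairs correlated at -0.0191 to 0.258 over 9688 genes, and 1 pair was above 0.1. On simulated counts with 200 genes changed 4-fold, the tests of class, age, subtype at e15.5 and subtype at p1 recovered 92.0%, 96.5%, 94.0% and 88.5% of them, and 5.15%, 6.31%, 2.59% and 4.32% of their calls were other genes. The simulated counts had no library effect and the typical spread of a gene's level, and most Hox genes varied more than the median gene. The rates are thus not those for the Hox members or for smaller changes. The wells' types are not the clusters of the study, and doublets were not called. Wells that met both class rules (4 at e15.5 and 7 at p1) entered neither class.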

Additional observations from a re-analysis of the deposited data

Results flagged for a closer look

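Of 87 series of one member over the libraries of a class, 11 held a library that stood apart from the others by Dixon's criterion. Its rate of 1 in 20 by chance holds for normal values. Several series here are counts near 0 in sums of unequal depth, so the 11 cannot be set against that rate. In e15.5 proprioceptors of library 6, Hoxb8 was at 12.04 CPM (18 UMIs, next library 6.47 CPM) and Hoxc11 at 16.7 CPM (25 UMIs, next 2.65 CPM), with 24 of the Hoxc11 UMIs in 1 well. Hoxd11 was at 1.45 CPM in library 9 (10 UMIs, next 0.482 CPM).

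In connective tissue 5 members stood apart in library 10, whose sum rests on 5 wells. They were Hoxc11 at 41.8 CPM (5 UMIs), Hoxc13 at 50.2 CPM (6 UMIs of 1 well), Hoxd3 at 16.7 CPM (2 UMIs), Hoxd10 at 58.6 CPM (7 UMIs) and Hoxd11 at 25.1 CPM (3 UMIs). At p1, Hoxa2 was at 5.67 CPM in library 3 (1 UMI), Hoxc13 at 0.297 CPM in library 2 (2 UMIs) and Hoxd11 at 9.90 CPM in library 6 (42 UMIs, next library 3.37 CPM).

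Hoxb1, at 0 in e15.5 proprioceptors and connective tissue, had 4 UMIs in 2 of the 83 e15.5 wells that met neither class rule and did not hold UMIs of both Avil and Isl1.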

How the results depend on the processing

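Without the filter on low counts, 19 of 34 members tested were lower in proprioceptors than in connective tissue, beside 6217 of 30011 genes. With the filter these were 12 of 21 and 4594 of 11891. Also without it, 6 members were higher at p1 than at e15.5, and 2 were lower in Gabrg1 wells. Settings differ in the genes tested, and the shares over all genes are not given for the others. The counts below thus describe the calls only. With wells thinned to 10000 UMIs, 6 members were lower in proprioceptors, 1 was lower at p1 and 2 were higher in Gabrg1 wells, and Hoxa10 lost its subtype call (adjusted p = 0.0548, edgeR). Thinned wells left 12, 11 and 6 members tested, and the 6 members no longer called lower in proprioceptors had fallen below the filter on low counts. With Etv1 at 1000 CPM or more, 3 members were lower at p1. Thinned, 4, 1 and 2 members were in 50% of the wells of e15.5 proprioceptors, connective tissue and p1 proprioceptors, and 2 in connective tissue at 2 UMIs or more. Leaving out 1 library gave 3 to 4 higher and 11 to 13 lower in proprioceptors, 2 to 6 higher and 2 to 5 lower at p1, 4 to 6 higher and 1 to 1 lower in Gabrg1 wells at e15.5, and 0 to 0 at p1. At p1 the counts of 6 higher and 2 lower came without p1 library 1, 5 and 2 without p1 library 6, and 3 lower without e15.5 library 7, 9 or 10 or p1 library 4.

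Uncalled members changed sign. Between proprioceptors and connective tissue, leaving out 1 library moved Hoxa10 from -0.014 (without e15.5 library 1) to 0.21 and Hoxc10 from -0.33 to 0.014 (without library 4). Between the p1 subtypes, Hoxa5 was at 0.11 with at least 1 marker UMI and from -0.33 to 0.36 (without library 5) as 1 library was left out, and Hoxa9 from -0.19 (without library 5) to 0.48. The p1 subtypes with at least 10 wells per sum could not be fitted, since 1 library was left. For all reversals the cause was not tested.

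Library numbers are shared between the ages but do not pair them: over 6 numbers the correlation of deviations was -0.211 to 0.203, and 2 were above 0.1. With the replicate block 2 members were higher and 2 lower at p1, and the differences of Hoxa10 and Hoxc10 became 1.60 and 0.67 in that fit. Hoxb4 (adjusted p = 0.0731), Hoxa3 (0.401), Hoxa9 (0.387), Hoxb7 (0.227) and Hoxc8 (0.206, edgeR) lost their calls in it. Without the block on library, 3 members were higher and 12 lower in proprioceptors, and 5 higher and 1 lower in Gabrg1 wells.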

Other observations

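Wells outside the compared classes carried other Hox profiles. Hoxd1, the D cluster gene of group 1, gave 77 UMIs in 25 of 55 other neuron wells at e15.5 (wells with UMIs of both Avil and Isl1 that met neither class rule), against 20 UMIs in 11 of 340 proprioceptor wells. In the remaining 83 wells it gave 4 UMIs in 1 well. The other neuron wells came from 10 libraries, of which 4 had at least 5 such wells, and no test was made.

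The 83 remaining e15.5 wells met neither class rule and did not hold UMIs of both Avil and Isl1. Of the 5 neuronal genes read, Tubb3 was found in 100% of them, Snap25 in 86.7%, Prph in 63.9%, Isl1 in 21.7% and Avil in 20.5%. Connective tissue wells held Tubb3 in 85.6% and Snap25 in 23.9%, so the type of the 83 wells is not named here. These 83 wells had a summed Hox level of 2420 to 5124 CPM in the 6 libraries with at least 5 such wells. That was above the highest proprioceptor library (1143 CPM) and the highest connective tissue library (1322 CPM). The B cluster gave 532 to 2103 CPM of it. In the 4 libraries with at least 5 other neuron wells the sum was 444 to 994 CPM. The median remaining well held 14 members, and 11 after thinning to 10000 UMIs.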
